A study of Mus musculus with 16 samples.

Results

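Pf4, Ppbp, Itga2b, Itgb3, Gp1bb, Gp9, Gp6, Treml1 and Clec1b are 9 genes of megakaryocytes and platelets, and their transcripts were followed through 16 RNA sequencing libraries labelled as neutrophils sorted from the bones of mice. They were taken as a named set, by function and not by a threshold on their values, though with earlier results of these data known, and make up 9 of the 49585 gene identifiers in the deposited count tables. All mice were C57BL/6 and 8 to 12 weeks old. In the P2 line, 4 libraries came from mice labelled Vav:cre PHD2 f/f (P2KO), which carry floxed PHD2, the oxygen sensor encoded by Egln1, and 4 came from mice labelled wild type (P2WT). In the P2H2 line, 4 libraries came from mice labelled Vav:cre PHD2/HIF2 ff/ff (P2H2KO), in which Epas1, the gene of the transcription factor subunit HIF2α, is floxed as well, and 4 came from mice labelled wild type (P2H2WT). The Vav promoter drives Cre in blood-forming cells, from which megakaryocytes also arise, and whether the wild types carried Cre or floxed alleles is not given in the sources used here. The series title names the motility of neutrophils as the question of the study, and the platelet genes were looked at as transcripts of another blood lineage in the same libraries.

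The libraries held between 23450746 and 28601284 counts. Each title carries a number and the suffix m or f, neither of which is explained in the labels, and the title number is used here as the replicate number. Whether each library came from a separate mouse is not stated, so p-values measure only the spread between these samples, which may be technical. Counts summed over the whole of Egln1 (P2WT 48.7 ± 2.21 CPM, P2KO 49.5 ± 6.40 CPM, SD, n = 4) do not show whether the floxed part was lost, so groups are named by their labels. The same holds for Epas1 (P2H2WT 3.56 ± 1.02 CPM, P2H2KO 5.65 ± 2.17 CPM, SD, n = 4). Levels are given as CPM, the count of a gene per fixed total of counts, with totals scaled by TMM, a factor that makes libraries of unequal composition comparable. All 15 neutrophil marker genes examined were detected in every group and summed to between 34919 and 89360 CPM per library. The 16 erythroid genes examined summed to between 29142 and 59148 CPM.

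Megakaryocytes are large cells of the marrow that shed platelets, the cell fragments that plug damaged vessels. Their alpha granules are filled with the chemokines PF4 and PPBP, and their surface carries the fibrinogen receptor made of the integrin subunits αIIb (Itga2b) and β3 (Itgb3). The receptor for von Willebrand factor is a complex that includes GPIbβ (Gp1bb) and GPIX (Gp9), GPVI (Gp6) binds collagen, CLEC-2 (Clec1b) binds podoplanin, and TREML1 is stored in alpha granules and moves to the surface on activation. The β3 subunit also pairs with αV in cells outside this lineage, osteoclasts among them, so Itgb3 is not specific to it. Transcription of megakaryocyte genes depends on GATA factors acting with FOG1 (Zfpm1) and on ETS factors such as FLI1.

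Stretches of 150 bases upstream of the transcription start, taken from RefSeq on GRCm38.p6, the assembly also called mm10, are shown for 5 of the genes. Pf4 and Ppbp are shown as neighbours on chromosome 5 that varied together, Itga2b as the classical megakaryocyte gene, Gp9 as the gene with the lowest correlation to the rest, and Gp6 as the only one with a GATA match. Capitals mark matches on either strand to AGGAAG, a core bound by ETS factors (read as CTTCCT on the other strand), or to AGATAA, bound by GATA factors (TTATCT on the other strand).
Pf4, chr5:90772285-90772434, plus strand: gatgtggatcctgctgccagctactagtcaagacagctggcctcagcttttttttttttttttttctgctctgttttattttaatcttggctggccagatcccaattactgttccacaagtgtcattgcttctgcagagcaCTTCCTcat
Ppbp, chr5:90768368-90768517, plus strand: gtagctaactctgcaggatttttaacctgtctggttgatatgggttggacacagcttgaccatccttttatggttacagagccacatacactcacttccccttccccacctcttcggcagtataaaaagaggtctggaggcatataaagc
Itga2b, chr11:102469884-102470033, minus strand: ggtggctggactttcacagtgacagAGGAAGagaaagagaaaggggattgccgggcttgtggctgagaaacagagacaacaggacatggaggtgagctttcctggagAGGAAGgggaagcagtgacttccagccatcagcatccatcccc
Gp9, chr6:87777920-87778069, plus strand: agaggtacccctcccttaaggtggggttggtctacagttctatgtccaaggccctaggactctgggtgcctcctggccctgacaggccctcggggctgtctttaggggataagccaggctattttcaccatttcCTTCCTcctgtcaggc
Gp6, chr7:4397745-4397894, minus strand: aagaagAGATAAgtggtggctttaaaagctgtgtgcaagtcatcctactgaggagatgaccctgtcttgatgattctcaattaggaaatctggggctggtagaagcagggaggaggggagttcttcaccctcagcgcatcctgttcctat
The table held promoters of 8 of the 9 genes and none for Itgb3. Within the 250 bases before the start, the ETS letters occurred in 3 of the 8 (Pf4, Itga2b and Gp9) and in 29.5% of the 32851 windows of that length in the whole table. The GATA letters occurred in 1 of the 8 (Gp6) and in 9.99% of all windows, and no gene of the set held both, against 2.95% of all windows. The match of Pf4 lay at positions -9 to -4 from the start and that of Gp9 at -16 to -11, both on the reverse strand. Itga2b held 2 forward matches, at -125 to -120 and -43 to -38, and Gp6 held 1 forward match at -144 to -139. Part of the Itga2b stretch is also an exon of a transcript that GENCODE M21 lists as processed and without a reading frame. Such matches are descriptions of letters and were set against no binding data.

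Whole genes are placed here by the GENCODE M21 annotation of GRCm38. Pf4 (ENSMUSG00000029373) lies on the plus strand of chromosome 5 at 90772435 to 90773383, just downstream of Ppbp (ENSMUSG00000029372, plus strand, 90768518 to 90770063). Itga2b (ENSMUSG00000034664, minus strand, 102453297 to 102470122) and Itgb3 (ENSMUSG00000020689, plus strand, 104608000 to 104670476) both lie on chromosome 11. Gp9 (ENSMUSG00000030054, plus strand, 87778072 to 87779768) and Clec1b (ENSMUSG00000030159, plus strand, 129397297 to 129409335) lie on chromosome 6. Gp1bb (ENSMUSG00000050761, minus strand, 18620317 to 18622403) is on chromosome 16, Gp6 (ENSMUSG00000078810, minus strand, 4363965 to 4397744) on chromosome 7 and Treml1 (ENSMUSG00000023993, plus strand, 48359916 to 48367176) on chromosome 17. Gp1bb shares 1902 of its 2087 exonic bases (91.1%) with Sept5 and 867 with Gm49601, both on the same strand, and Clec1b shares 184 with Clec9a, so reads in those bases may have been counted for either gene or dropped. The level of Gp1bb per kilobase, and its place among the others, are therefore uncertain. The other 7 genes share no exonic base with another annotated gene.

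All 9 genes were detected in all 16 libraries and passed the filter on low counts in every comparison. Mean levels per kilobase of exon, over the 16 libraries, were 13.1 CPM per kb for Itgb3, 13.06 for Pf4, 9.77 for Ppbp, 8.10 for Gp9, 5.19 for Itga2b, 1.21 for Treml1, 1.15 for Gp1bb, 0.392 for Clec1b and 0.157 for Gp6. Neighbours in that order were compared within libraries. Itgb3 was above Pf4 in 10 of 16 libraries, Ppbp above Gp9 in 5 and Treml1 above Gp1bb in 4, so these 3 pairs did not differ beyond their spread. Pf4 was above Ppbp in 15 libraries, and Gp9 above Itga2b, Itga2b above Treml1, Gp1bb above Clec1b and Clec1b above Gp6 in 16 of 16. Among subunits of 1 receptor, the mean per kilobase of Gp9 (8.10 CPM per kb) stood above that of Gp1bb (1.15), whose exons are mostly shared, and that of Itgb3 (13.1) above that of Itga2b (5.19).

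The spread between libraries was wide for this set. The highest of the 16 libraries exceeded the lowest 62.2-fold for Ppbp, 37.8-fold for Gp6, 22.9-fold for Treml1, 9.38-fold for Pf4, 7.71-fold for Clec1b, 5.47-fold for Gp1bb, 3.78-fold for Itga2b, 3.37-fold for Gp9 and 2.24-fold for Itgb3. Over the 13989 tested genes with counts in every library the median of this ratio was 1.64, and 8.16% of them exceeded 5. Gp6 rested on few reads, from 3 to 106 counts per library, and Treml1 on 7 to 169, so counting error adds to their ratios. In bulk RNA, a different number of platelets or megakaryocytes and a different amount of RNA in each cannot be told apart.

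The chemokine Pf4 stood at 6.84, 6.07, 11.1 and 16.5 CPM in P2WT replicates 3, 4, 7 and 10 and at 7.29, 5.63, 14.3 and 31.1 CPM in P2KO replicates 1, 5, 6 and 9. In the P2H2 line it stood at 4.83, 4.18, 6.31 and 3.31 CPM in P2H2WT replicates 13, 14, 16 and 18 and at 12.4, 6.73, 4.20 and 9.83 CPM in P2H2KO replicates 11, 12, 15 and 17. The genotype groups overlapped in both lines, and the 2 lowest libraries of the P2 line were no lower than the median of P2H2WT. Ppbp, its neighbour, was at 2.25, 5.42, 13.5 and 22.9 CPM in P2WT and at 2.87, 5.66, 16.4 and 59.5 CPM in P2KO, in the same order of replicates. In P2H2WT it was at 1.29, 0.956, 4.37 and 4.89 CPM, and in P2H2KO at 16.01, 7.01, 2.30 and 4.01 CPM. In both chemokines P2KO replicate 9 was the highest library and P2WT replicate 10 the next. The ratio of Ppbp to Pf4 CPM ran from 0.229 to 1.92 over the 16 libraries, so the pair did not keep a fixed proportion.

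The fibrinogen receptor subunits differed from each other. Itga2b was at 20.4, 18.9, 27.9 and 39.2 CPM in P2WT, at 22.1, 22.7, 28.5 and 66.3 CPM in P2KO, at 22.4, 28.5, 21.6 and 25.0 CPM in P2H2WT and at 38.3, 30.5, 17.5 and 22.8 CPM in P2H2KO. Itgb3 was at 58.0, 58.4, 73.5 and 108.9 CPM in P2WT, at 55.9, 51.3, 102.0 and 114.8 CPM in P2KO, at 59.3, 56.9, 81.0 and 96.2 CPM in P2H2WT and at 70.5, 57.9, 89.3 and 106.0 CPM in P2H2KO. In both genes the P2 line was high in replicates 7, 10, 6 and 9, but in P2H2KO the highest Itgb3 libraries, 17 and 15, were the lowest for Itga2b. Itgb3 made up 37.3% to 74.0% of the summed CPM of the 9 genes in a library, and the sum ran from 98.1 to 307.5 CPM.

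In the von Willebrand factor receptor, Gp9 was the steadier subunit, at 7.21, 7.52, 5.41 and 8.22 CPM in P2WT, 8.79, 8.39, 6.48 and 12.2 CPM in P2KO, 6.76, 8.33, 5.65 and 5.41 CPM in P2H2WT and 8.22, 6.61, 3.63 and 5.28 CPM in P2H2KO. P2WT replicate 7 and P2KO replicate 6, which were among the higher libraries for Pf4 and Ppbp, were the lowest of their groups for Gp9. Gp1bb ranged from 1.33 CPM in P2WT replicate 4 to 7.29 CPM in P2KO replicate 9, with P2WT replicate 10 next at 3.75 CPM. Among the receptors for collagen and podoplanin, Gp6 ranged from 0.108 CPM in P2H2KO replicate 15 to 4.07 CPM in P2KO replicate 9. Clec1b was at 1.95, 2.39, 2.53 and 3.14 CPM in P2WT, 1.66, 1.04, 2.17 and 5.80 CPM in P2KO, 0.752, 1.04, 1.12 and 1.66 CPM in P2H2WT and 2.08, 1.17, 1.51 and 2.03 CPM in P2H2KO. It was the 1 gene of the 9 for which all P2WT libraries lay above all P2H2WT libraries. Treml1 was at 0.902, 1.66, 2.65 and 3.79 CPM in P2WT, 0.957, 0.967, 2.13 and 6.49 CPM in P2KO, 0.752, 0.558, 1.08 and 0.283 CPM in P2H2WT and 1.77, 1.25, 0.647 and 1.17 CPM in P2H2KO.

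**Figure D1:**
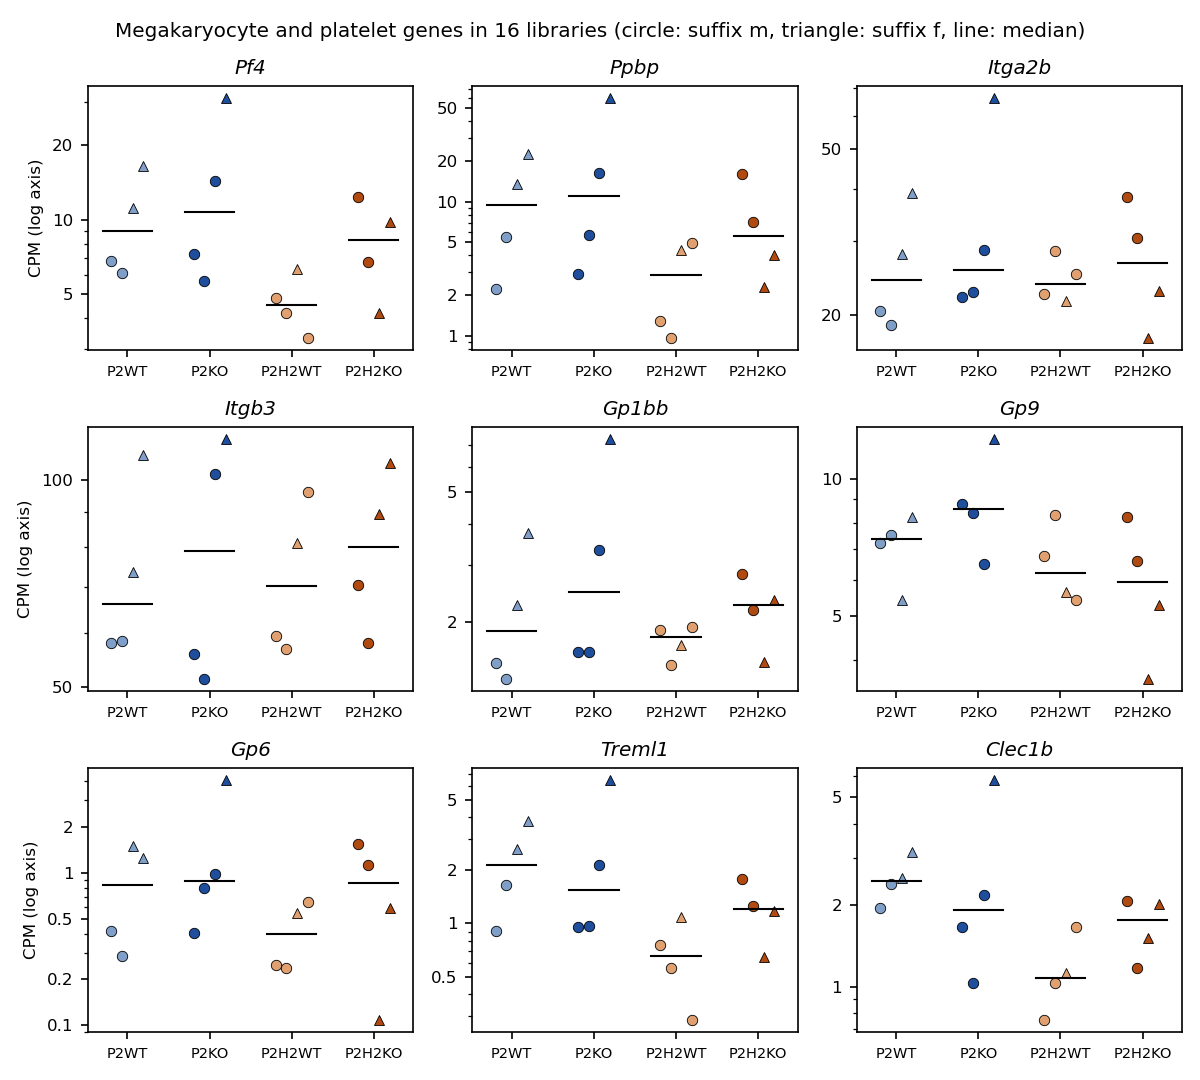
CPM of each of the 9 genes on a log axis, 1 point per library in order of title number within a group (circle for suffix m, triangle for suffix f), with the median of the 4 libraries as a line. P2KO replicate 9 is the highest point of all 9 panels, from 4.07 CPM for Gp6 to 114.8 CPM for Itgb3.

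By group mean, P2KO came first for all 9 genes and P2H2WT last for 8, with Gp9 lowest in P2H2KO at 5.93 ± 1.95 CPM (SD, n = 4). Neighbouring groups in that order overlapped for all 9 genes. The SD in CPM was the largest of the 4 groups in P2KO for all 9 genes. Ppbp averaged 21.1 ± 26.3 CPM in P2KO against 11.02 ± 9.23 CPM in P2WT, and Pf4 14.6 ± 11.6 against 10.1 ± 4.81 CPM (SD, n = 4). For the P2H2 line, the mean of Ppbp was 7.33 ± 6.10 CPM in P2H2KO against 2.88 ± 2.04 CPM in P2H2WT, and that of Pf4 8.29 ± 3.57 against 4.66 ± 1.26 CPM (SD, n = 4).

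The deletion of PHD2, as labelled, was examined in P2KO against P2WT. Of the 9 genes, 0 passed an adjusted p of 0.05 in edgeR's quasi-likelihood test with Benjamini-Hochberg adjustment over 13734 genes, where 0.0437% of all genes did, and 0 had an unadjusted p under 0.05, against 3.49% of all genes. All 9 log2 fold changes lay above 0, as did 57.8% of those of all genes, and their median was 0.40 against 0.020 for all genes. Ppbp had the largest, 0.94 ± 0.94 (SE; 95% interval -1.17 to 3.06), and Gp6 was at 0.85 ± 0.75, Gp1bb at 0.65 ± 0.53 and Pf4 at 0.53 ± 0.54 (SE). The narrowest interval was that of Gp9, at 0.35 ± 0.20 (SE; -0.10 to 0.80). Without P2KO replicate 9, 8 of the 9 log2 fold changes turned below 0, with Ppbp at -0.41, Pf4 at -0.16, Treml1 at -0.74 and Clec1b at -0.62, and Gp9 stayed above at 0.16. The direction of 8 of the 9 genes in the P2 line therefore depended on P2KO replicate 9. Itgb3, Treml1 and Clec1b each turned in 2 of the 8 fits with 1 library left out. Without P2WT replicate 3, 2 genes lay below 0 (lowest -0.034), and without P2KO replicate 6, 1 did (-0.0021).

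**Figure D2:**
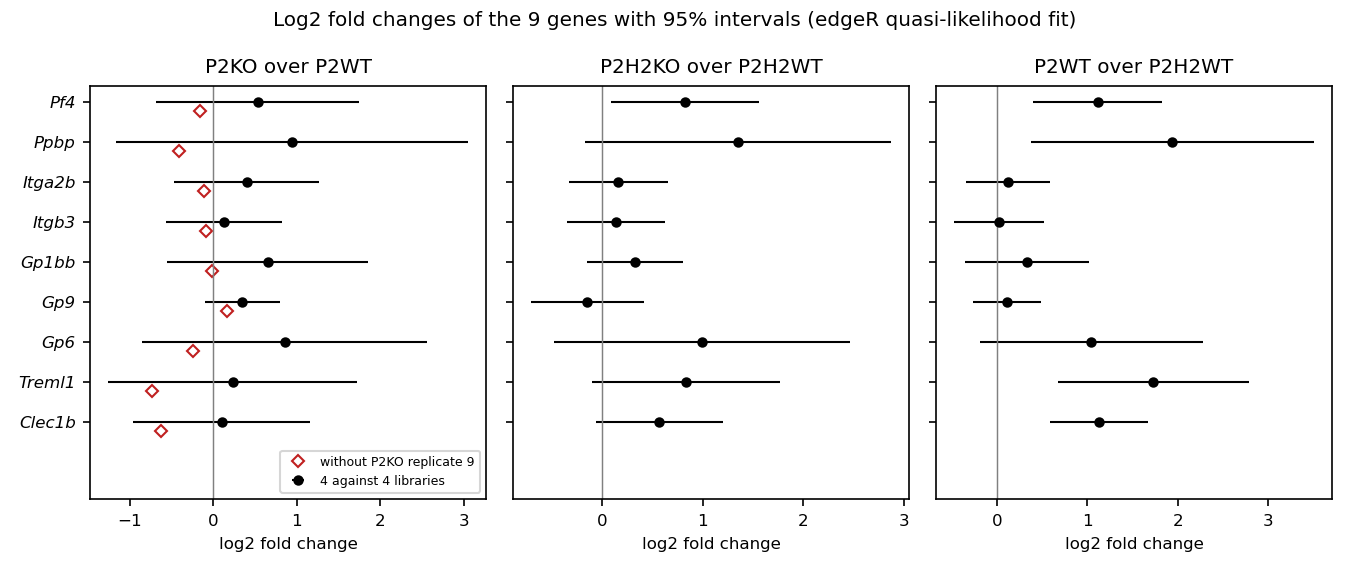
Log2 fold changes of the 9 genes with their 95% intervals in 3 comparisons of 4 against 4 libraries, with the values without P2KO replicate 9 as red diamonds in the left panel. In the left panel all intervals cross 0 and 8 of 9 diamonds lie below it, whereas in the right panel the intervals of Pf4, Ppbp, Treml1 and Clec1b lie above 0 before adjustment.

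The deletion of PHD2 together with HIF2α, as labelled, was examined in P2H2KO against P2H2WT. Again 0 of the 9 genes passed the adjusted threshold, where 0.0744% of all genes did, and 1 (Pf4) had an unadjusted p under 0.05, as did 2.63% of all genes. Of the log2 fold changes, 8 of 9 lay above 0, as did 50.5% of all genes, with a median of 0.57 against 0.0011 for all genes. Pf4 was at 0.82 ± 0.33 (SE; 95% interval 0.090 to 1.56; unadjusted p = 0.0316, edgeR adjusted p = 0.9999), Ppbp at 1.35 ± 0.67 and Gp6 at 0.996 ± 0.65. Treml1 was at 0.84 ± 0.41 and Clec1b at 0.57 ± 0.28 (SE). The integrin subunits lay close to 0, at 0.16 ± 0.22 for Itga2b and 0.14 ± 0.22 for Itgb3, and Gp9 was below it at -0.14 ± 0.25 (SE). Leaving out any 1 library kept the chemokines, Gp1bb, Gp6, Treml1 and Clec1b above 0 in all 8 fits, while Ppbp moved to 0.63 without P2H2KO replicate 11, its highest library of the line.

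Whether the 2 genotype effects differ was tested as the P2 effect minus the P2H2 effect. None of the 9 genes passed the adjusted threshold in edgeR's fit of all 16 libraries, and neither did any of the 14080 genes tested (0.0% of them). At an unadjusted p under 0.05 it was 0 of the 9 and 1.51% of all genes, and 3 of the 9 values lay above 0, against 50.4%. The intervals were wide. They ran from -3.13 to 2.30 for Ppbp and from -1.77 to 1.16 for Pf4, so fold differences of either sign remain within them.

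The lines themselves were compared in their wild types, P2WT against P2H2WT, where line and deposited table cannot be told apart. In edgeR's test 0 of the 9 genes passed the adjusted threshold, where 1.22% of all genes did, and 4 had an unadjusted p under 0.05, as did 11.4% of all genes. All 9 log2 fold changes lay above 0 (46.6% of all genes did), with a median of 1.05 against -0.012. Clec1b came closest, at 1.13 ± 0.24 (SE; 95% interval 0.59 to 1.68; edgeR adjusted p = 0.0619), with groups that did not overlap, as held for 5.16% of all genes in that direction. By the same edgeR test Treml1 was at 1.73 ± 0.48 (adjusted p = 0.157), Pf4 at 1.12 ± 0.32 (adjusted p = 0.180) and Ppbp at 1.94 ± 0.70 (SE; adjusted p = 0.313). DESeq2 passed Clec1b (adjusted p = 0.00328), Treml1 (0.0177) and Pf4 (0.0202), and edgeR passed Clec1b without a filter on low counts (0.0248) and without P2H2WT replicate 18 (0.0332). Those fits passed 419 of 13591 genes with DESeq2, 207 of 25296 without the filter and 146 of 13779 without P2H2WT replicate 18. Over all 15 alternatives the adjusted p of Clec1b ran from 0.00328 to 0.335. Itga2b, Itgb3 and Gp9 had log2 fold changes of 0.13, 0.025 and 0.11 between the wild types, with 95% intervals of -0.34 to 0.59, -0.47 to 0.52 and -0.27 to 0.49. Without P2WT replicate 10, 6 of the 9 genes lay above 0 and the median was 0.77. With the suffix as a covariate 7 of the 9 did, with a median of 0.55.

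Some endothelial and stroma markers differed between the wild types, where 1.22% of all genes passed the adjusted threshold. Of the 15 neutrophil, 16 erythroid, 16 monocyte and macrophage and 11 B cell genes, 0 passed it. The 11 endothelial genes summed to between 113.3 and 131.8 CPM in the P2WT libraries and between 77.1 and 88.0 CPM in P2H2WT, and 9 of 11 passed the adjusted threshold as higher in P2WT. The 10 genes of bone and marrow stroma summed to between 512.9 and 1410.5 CPM in P2WT and between 199.5 and 339.3 CPM in P2H2WT, with 3 of 10 passing. All genes of the endothelial and stroma lists were detected in each group. Their part in the log2 fold changes of the platelet genes was not tested. In the libraries labelled as deficient, P2KO against P2H2KO, 0 of the 9 genes passed the adjusted threshold (0.279% of all genes did), 0 had an unadjusted p under 0.05 (10.7% of all genes did) and 8 of 9 lay above 0 (45.7% of all genes did), with a median of 0.62. Without P2KO replicate 9, 4 of the 9 lay above 0 and the median was -0.034. In the same comparison 0 of the 11 endothelial genes passed the adjusted threshold and all 11 lay above 0. The endothelial sums were 102.2 to 232.6 CPM in P2KO and 79.2 to 93.4 CPM in P2H2KO. The stroma sums were 606.2 to 1203 CPM in P2KO and 190.7 to 293.2 CPM in P2H2KO. That comparison has no library in common with the one between the wild types.

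One library stood at the top of the whole set. P2KO replicate 9 was the highest of the 16 in all 9 genes, whereas it was highest in 13.5% of the 14080 genes tested over all libraries. Relative to the median of the other 15 libraries it held 12.2 times the Ppbp, 6.94 times the Gp6, 5.99 times the Treml1, 4.62 times the Pf4 and 1.63 times the Itgb3 CPM. It was also the highest library for 18 of the 29 tested genes on the list of other platelet genes. By the sum of that list, 1185 CPM, this library was number 5 from the highest, with the others at 876.1 to 1803 CPM. Such a sum weighs the abundant genes most. The highest sum was that of P2WT replicate 10, where Thbs1, the most abundant gene of the list, was at 825.9 CPM. In P2KO replicate 9 the endothelial sum of 232.6 CPM was the highest of all libraries, with the others at 77.1 to 131.8. Its sums for B cells (858.0 CPM) and for eosinophils, basophils and mast cells (5392 CPM) were the highest too. Its neutrophil sum of 34919 CPM and its monocyte and macrophage sum of 2552 CPM were the lowest. The part of those cells in the platelet values of this library was not tested.

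The titles give a further pattern, looked for after the values had been seen. In the P2 line the 4 libraries with the higher title numbers (6, 7, 9 and 10, of both genotypes) were all above the 4 with the lower numbers (1, 3, 4 and 5) in 7 of the 9 genes, the exceptions being Gp9 and Clec1b, and in 2.73% of all 14080 genes. Pf4, for example, was at 5.63 to 7.29 CPM in the lower and at 11.1 to 31.1 CPM in the higher numbers. In the P2H2 line this held for 1 of the 9 genes and 14.5% of all genes. The gene was Itgb3, at 56.9 to 70.5 CPM in numbers 11 to 14 and 81.0 to 106.0 CPM in numbers 15 to 18, and Gp9 went the other way, as did 13.4% of all genes, at 6.61 to 8.33 against 3.63 to 5.65 CPM. What the numbers stand for is not given in the sources used here. With the number as a covariate, edgeR's log2 fold change in the P2 line was 0.97 ± 0.32 for Ppbp and 0.61 ± 0.29 for Pf4 (SE). Still 0 of the 9 genes passed the adjusted threshold. In this edgeR fit the unadjusted p was under 0.05 for Ppbp (0.0175), Gp1bb (0.0217), Itga2b (0.0387) and Gp6 (0.0483) and for none of the others. Over all genes it was under 0.05 for 493 of 13734. The libraries with suffix f were all above those with suffix m in 3 of the 9 genes in the P2 line (2.68% of all genes) and in 0 in the P2H2 line (6.34% of all genes). Replicate 9 was the only P2KO library with suffix f, so suffix and library cannot be told apart within P2KO. With the suffix as a covariate, all 9 log2 fold changes in the P2 line lay above 0, with a median of 0.57. Their smallest unadjusted p in that edgeR fit was 0.00233, where 458 of 13734 genes were under 0.05. Again 0 of the 9 passed the adjusted threshold.

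Across the 16 libraries most of the set varied together. Correlations were computed on log2 CPM (prior count of 2) for 36 pairs of the 9 genes and for 99 pairs of a gene with a marker list, 135 in all, with permutation p-values adjusted over the 135. Among pairs of the 9 genes, 24 of 36 had an adjusted p under 0.05 for Pearson's r and 17 for Spearman's rho. The strongest was Pf4 with Treml1 (r = 0.94, rho = 0.89, permutation p = 1e-05, the smallest that 100000 permutations can give; adjusted p = 0.000337). It was 0.93 within the P2 line, 0.92 within the P2H2 line (8 libraries each) and 0.88 without the 2 libraries farthest from the median of Pf4. Pf4 with Ppbp gave r = 0.86 (rho = 0.73, adjusted permutation p = 0.000405), with 0.92 in the P2 line, 0.66 in the other line and 0.73 without the 2 farthest libraries. Genes measured as parts of one library total share its composition, so these correlations are not evidence on single cells.

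**Figure D3:**
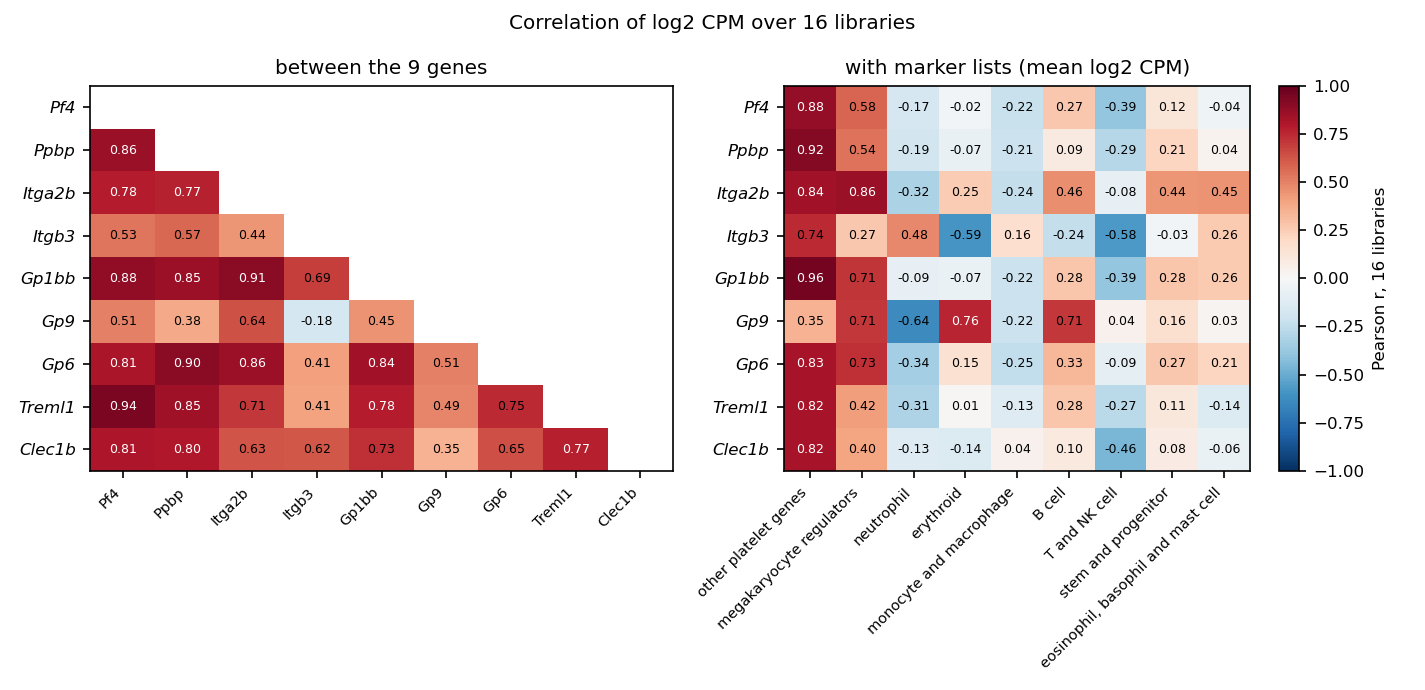
Pearson correlations of log2 CPM over the 16 libraries, between the 9 genes (left) and with the mean log2 CPM of 9 marker lists (right), from -1 in blue to 1 in red. On the left the pairs with Itgb3 or Gp9 are paler, with -0.18 between them, and on the right Gp9 is the gene with the highest value for the erythroid list (0.76). The endothelial and stroma lists are left out because their levels fall into separate ranges by line.

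Itgb3 and Gp9 had lower correlations with the rest. The 21 pairs that hold neither of them had r from 0.63 to 0.94, and the 15 pairs with either had r from -0.18 to 0.69 with 3 of the 15 passing an adjusted p of 0.05 by r and 1 by rho; this split was made after the values had been seen. The strongest of the 15 was Itgb3 with Gp1bb (r = 0.69, rho = 0.70, adjusted permutation p = 0.00506), with 0.93 and 0.10 within the lines and 0.53 without the 2 farthest libraries. Itgb3 also correlated with the list of other platelet genes (r = 0.74, rho = 0.78, adjusted permutation p = 0.000928), with 0.93 and 0.47 within the lines and 0.64 without the 2 farthest libraries, whereas for Gp9 that r was 0.35 (rho = -0.12, adjusted permutation p = 0.328; 0.45 and -0.17 within the lines and -0.18 without the 2 farthest libraries). Each gene against the mean of the other 8, given as a description with no test, had r from 0.81 to 0.94 for 7 genes, 0.53 for Itgb3 and 0.47 for Gp9. For Itgb3 it was 0.91 among the P2 libraries and 0.024 among the P2H2 libraries. The median r of the 21 pairs was 0.81, and without P2KO replicate 9 they ran from 0.31 to 0.91. They ran from 0.68 to 0.99 among the P2 libraries and from 0.22 to 0.92 among the P2H2 libraries. Without the 2 farthest libraries of each pair they ran from 0.092 to 0.88, so some of the 21 rested on those. Itga2b with Itgb3, the subunits of 1 receptor, had r = 0.44 (rho = 0.37, adjusted permutation p = 0.178), with 0.86 among the P2 libraries and -0.47 among the P2H2 libraries. It fell to 0.022 without the 2 farthest libraries, so it rested on those.

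Gp9 correlated with the erythroid genes, a list of haemoglobins and other red cell genes. Its r with their mean log2 CPM was 0.76 (rho = 0.80, adjusted permutation p = 0.00304), with 0.64 among the P2 libraries, 0.998 among the P2H2 libraries and 0.67 without the 2 farthest libraries. In P2H2KO replicate 15, the library with the least Gp9 (3.63 CPM), the erythroid sum was also the lowest of all, at 29142 CPM. With the B cell list its r was 0.71 (rho = 0.52, adjusted permutation p = 0.0102), but this fell to 0.34 without the 2 farthest libraries, P2H2KO replicate 15 and P2KO replicate 9, and so rested on them. Gp9 went against the neutrophil list, with r = -0.64 (rho = -0.60, adjusted permutation p = 0.0274), with -0.46 and -0.69 within the lines and -0.42 without the 2 farthest libraries. For Itgb3 the signs were opposite. Its r with the neutrophil list was 0.48 (rho = 0.46, adjusted permutation p = 0.149), with 0.31 among the P2 libraries, 0.90 among the P2H2 libraries and 0.88 without the 2 farthest libraries, P2KO replicate 9 and P2WT replicate 10. With the erythroid list it was -0.59 (rho = -0.59, adjusted permutation p = 0.0485), with -0.53 and -0.70 within the lines and -0.77 without the 2 farthest libraries. Neutrophil and erythroid sums are parts of the same totals, and no other measure of the cells in each library was used here.

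**Figure D4:**
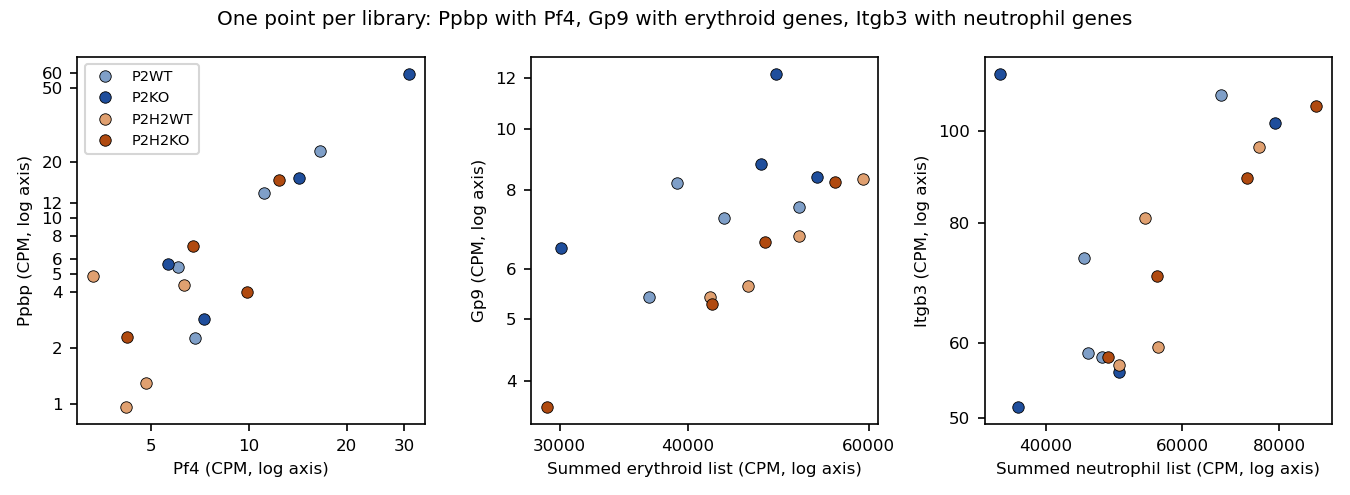
Each point is 1 library, with both axes in CPM on log scales: Ppbp against Pf4 (left), Gp9 against the summed erythroid list (middle) and Itgb3 against the summed neutrophil list (right), coloured by group. In the right panel P2KO replicate 9 is the single point at the upper left, with 114.8 CPM of Itgb3 at the lowest neutrophil sum of 34919 CPM.

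The genes outside the set that tracked it most closely were sought among 12073 genes with a mean of at least 1 CPM, by the r of their log2 CPM with the mean log2 CPM of the 9 genes over the 16 libraries. Among the 10 closest were Rab27b (0.97), Myom1 (0.95), Gp1ba (0.94), Mrvi1 (0.93), Gnaz (0.93), F2rl2 (0.92), Gcsam (0.92), Myl9 (0.92) and Pde3a (0.90). Of these, Rab27b, Gp1ba, Mrvi1, F2rl2 and Myl9 were on the list of other platelet genes. Gp1ba encodes the ligand-binding chain of the von Willebrand factor receptor and Rab27b a small GTPase of platelet granule release. All of the genes named here were highest in P2KO replicate 9. They were chosen by their r with 9 genes that were all highest in that library, so this is no separate result. Without the 2 farthest libraries their r ran from 0.77 (Gcsam) to 0.91 (Rab27b). Their mean levels ran from 1.07 CPM on average for Pde3a to 3.73 CPM for Mrvi1.

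The list of 30 other platelet genes was read for the same comparisons. In P2KO against P2WT 0 of 28 tested genes passed the adjusted threshold (0.0437% of all genes did). Of the 28, 25 lay above 0 (57.8% of all genes did), with a median of 0.37, and 1 had an unadjusted p under 0.05 (3.49% of all genes did). Without P2KO replicate 9, 12 of the 28 lay above 0 and the median was -0.062. In P2H2KO against P2H2WT 0 of 27 passed (0.0744% of all genes did), with 21 above 0 (50.5% of all genes) and a median of 0.18. An unadjusted p under 0.05 was found for 4 of the 27, all higher in P2H2KO, and for 2.63% of all genes. For the difference of the effects 0 of 29 passed, as did 0.0% of all genes, and 1 had an unadjusted p under 0.05 (1.51% of all genes did). There 16 lay above 0 (50.4% of all genes did), or 5 without P2KO replicate 9. The smallest p in the P2 line was that of Thbs1, thrombospondin, with a mean of 179.3 ± 68.4 CPM in P2KO against 437.4 ± 280.1 CPM in P2WT (SD, n = 4; log2 fold change -1.28 ± 0.46 SE; edgeR unadjusted p = 0.0211, adjusted p = 0.99999). In the P2H2 line it was that of Selp, P-selectin of alpha granules and of endothelial cells, with a mean of 4.70 ± 1.74 CPM in P2H2KO against 1.82 ± 0.337 CPM in P2H2WT (SD, n = 4). Its log2 fold change was 1.36 ± 0.27 (SE; edgeR unadjusted p = 0.000718, adjusted p = 0.402), and the groups did not overlap, which held for 0.945% of all genes in that direction. Over the 16 alternatives its adjusted p ran from 0.00313 with DESeq2 to 0.9999, and 3 of the 16 passed the threshold. Selp also had the smallest p for the difference of the effects, at -1.14 ± 0.49 (SE; edgeR adjusted p = 0.9995). In P2KO against P2H2KO 0 of 28 passed (0.279% of all genes did) and 2 had an unadjusted p under 0.05 (10.7% of all genes did). There 20 lay above 0 (45.7% of all genes did), or 13 without P2KO replicate 9. Serpine2 had the smallest p, at 32.2 ± 7.73 against 20.9 ± 4.98 CPM (SD, n = 4). Its log2 fold change was 0.59 ± 0.20 (SE), with an edgeR adjusted p = 0.396.

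Between the wild types 20 of 28 other platelet genes lay above 0 (46.6% of all genes did), with a median of 0.36, or 0.085 with 17 above 0 without P2WT replicate 10. An unadjusted p under 0.05 was found for 10 of the 28, 9 of them higher in P2WT, and for 11.4% of all genes. The adjusted threshold was passed by 1.22% of all genes in edgeR's test. The number that passed the adjusted threshold was 1 in edgeR's test, 2 with upper-quartile factors and without P2WT replicate 4, 3 with no filter or with the suffix as a covariate, 6 with DESeq2, and 0 with the count minimum in every library or in 1 fit of all 16 libraries. Of all genes, DESeq2 passed 419 of 13591, no filter 207 of 25296 and the suffix 242 of 13593. Upper-quartile factors passed 177 of 13593, and leaving out P2WT replicate 4 passed 96 of 13764. The 1 gene in edgeR's test was Mmrn1, lower in P2WT, which encodes multimerin, a protein of platelet alpha granules. It had 0 counts in all 8 libraries of the P2 line. In P2H2WT it had 42, 35, 33 and 43 counts, or 1.48 ± 0.196 CPM (SD, n = 4), at least 12.2-fold higher than P2WT when P2WT is set at 3 counts per library (edgeR adjusted p = 0.00123). It passed the threshold in 13 of the 14 alternatives that tested it, the exception being 1 fit of all 16 libraries (adjusted p = 0.149). P2H2KO was divided, with 0 counts in replicates 11 and 17 and 47 and 53 counts in replicates 12 and 15. Whether the mice differ in substrain or allele at this gene was not tested. The genes of this list with the highest CPM were Thbs1 (247.3 CPM on average), F5 (165.5), Cd9 (153.9), Bin2 (135.0), Parvb (124.4) and Rgs18 (66.2), all expressed in leukocytes as well. Leaving Thbs1 aside, their edgeR log2 fold changes within the lines lay between -0.063 (Parvb, P2H2 line) and 0.18 (Cd9, P2H2 line).

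Of the 12 regulators of megakaryocytes, 0 passed the adjusted threshold in any of the 5 edgeR comparisons. The share of all genes passing was lowest for the difference of the effects (0.0%) and highest between the wild types (1.22%). A count of 0 among 12 therefore does not set this list apart from other genes. The single unadjusted p under 0.05 was that of Nfe2 between the wild types, at -0.18 ± 0.072 (SE; edgeR adjusted p = 0.389). An unadjusted p under 0.05 was found there for 11.4% of all genes as well. The highest by CPM were Zfpm1 (451.8 CPM on average), Tal1 (420.9 CPM) and Nfe2 (420.7 CPM), which erythroid cells also express. Among the smallest unadjusted p in other comparisons were those of Gfi1b in the P2 line (0.21 ± 0.15) and Etv6 for the difference of the effects (-0.24 ± 0.16, log2 fold changes with SE). Of the 9 platelet genes, Itga2b was the one closest to the mean of this list, with r = 0.86 (rho = 0.85, adjusted permutation p = 0.000405; 0.87 and 0.93 within the lines and 0.81 without the 2 farthest libraries).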

How the data were processed

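RNA of 16 libraries labelled as sorted neutrophils was read from the deposited tables of raw counts per gene. The authors counted reads with HTSeq on mm10, per the submitters' processing notes; versions, aligner, annotation release and use of strand are not given in the sources used here. Groups came from the labels, and the replicate number from the titles. The 9 genes and all lists were chosen with earlier results of these data known. Gene identifiers without a symbol, which held 0.00714% of all counts, were kept in the totals and the fits. None of the 24 pairs of libraries within a group agreed within sampling noise (lowest chi-square per degree of freedom 11.5).

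Counts were tested with edgeR 4.0.16 in R 4.3.3 (quasi-likelihood, robust, TMM, filterByExpr), with Benjamini-Hochberg adjustment over all genes tested and a threshold of 0.05. Genotypes were tested within each line on 8 libraries, and the difference of the effects on 16. CPM used the TMM factors of all 16 libraries, log2 CPM a prior count of 2, and levels per kilobase the union of exons in GENCODE M21. Standard errors are the log2 fold change over the square root of the F statistic. Intervals are at 95% and cover the spread between libraries. Correlations used 100000 permutations (numpy 2.4.6). The steps were tested on simulated data.

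Alternatives were DESeq2 1.42.0, scaling by RLE or by upper quartiles, testing without any filter or with a count minimum of 10 in each library, the title suffix as a covariate, 1 fit of all 16 libraries and leaving out each library. The title number as a covariate was chosen after seeing the data. From lists other than the 9 genes, the text names the most abundant genes, those past the threshold and the smallest p of each comparison for platelet genes and regulators. Alternatives of those genes were run on the same fits. Sequences within 250 bases before each start were searched for 2 motifs in the RefSeq promoter table of GRCm38.p6. No sequence of a protein is shown, and 2 genes of the regulator list are not reported here by name.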

Additional observations from a re-analysis of the deposited data

Results flagged for a closer look

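2 of the 9 genes had a library that stood apart within its group of 4 by Dixon's test at the 95% level, where the gap to the nearest library must exceed 0.829 of the group's range. Both were P2KO replicate 9. Itga2b was at 66.3 CPM there, with the other P2KO libraries at 22.1 to 28.5 CPM, a gap of 0.854 of the range. Gp6 was at 4.07 CPM there, with the others at 0.405 to 0.988 CPM, a gap of 0.841. The test was run on 36 groups, of which chance would be expected to pick out about 1 in 20. The remaining 7 genes had no such library.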

How the results depend on the processing

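No paired analysis was possible because no title number is shared between the groups. Of the 9 genes, 0 passed the threshold in edgeR's main fits, and the alternatives changed this only between the wild types, where 1 gene (Clec1b) passed with no filter, 3 with DESeq2 (Clec1b, Treml1 and Pf4), and 0 to 1 when each library was left out. In that comparison 207 of 25296 genes passed with no filter and 419 of 13591 with DESeq2. Over all alternatives the lowest adjusted p of any of the 9 genes was 0.406 for the P2 line and 0.324 for the P2H2 line, 0.721 for the difference of the effects and 0.192 in P2KO against P2H2KO.

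Counts of all genes passing moved more. In the P2 line edgeR passed 6, DESeq2 23 (13 higher and 10 lower against 6 and 0) and 1 fit of all 16 libraries 10. For the P2H2 line edgeR passed 10, DESeq2 42 (33 higher and 9 lower against 10 and 0) and the fit with the title number 19. Between the wild types edgeR passed 166, the count minimum in every library 87, DESeq2 419 and 1 fit of all 16 libraries 32, with 17 higher and 15 lower against 148 and 18. In P2KO against P2H2KO edgeR passed 38, no filter 63, the count minimum 12, DESeq2 255, the suffix 150 and 1 fit of all 16 libraries 130. Leaving out each library gave 4 to 6 for the P2 line, 6 (without P2H2WT replicate 13) to 9 for the P2H2 line and 0 for the difference of the effects. Between the wild types it gave 76 (without P2WT replicate 10) to 167, with 77, 96 and 96 without P2WT replicates 3, 4 and 7 and 99 without P2H2WT replicate 16. In P2KO against P2H2KO it gave 11 (without P2H2KO replicate 17) to 26 (without P2KO replicate 9).

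Signs turned as follows, and the cause was not tested. With the title number, Itga2b was at -0.012 in the P2H2 line and Gp6 at 0.20 for the difference of the effects. With the suffix, the difference of the effects was 0.29 for Itgb3 and 0.011 for Gp6, the wild types gave -0.016 for Itga2b and -0.12 for Itgb3, and P2KO against P2H2KO gave 0.13 for Itgb3. In the latter comparison Itgb3 was also at 0.0014 with upper-quartile factors, 0.0080 with the count minimum and 0.00070 in 1 fit of all 16 libraries.

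With each library left out, log2 fold changes in the P2 line ran from -0.16 to 0.88 for Pf4, -0.41 to 1.60 for Ppbp, -0.12 to 0.65 for Itga2b, -0.092 to 0.37 for Itgb3, -0.019 to 1.04 for Gp1bb, -0.25 to 1.25 for Gp6, -0.74 to 0.62 for Treml1 and -0.62 to 0.37 for Clec1b, the lowest being those without P2KO replicate 9. For the P2H2 line they ran from -0.045 (without P2H2KO replicate 11) to 0.33 for Itga2b, -0.012 (without P2H2KO replicate 17) to 0.30 for Itgb3 and -0.34 to 0.039 (without P2H2KO replicate 15) for Gp9. For the difference of the effects they ran from -0.99 to 0.039 for Pf4, -1.77 to 0.31 for Ppbp, -0.29 to 0.47 for Itga2b, -0.25 to 0.21 for Itgb3, -0.36 to 0.70 for Gp1bb and -1.25 to 0.32 for Gp6. Between the wild types they ran from -0.12 to 0.26 for Itga2b, -0.22 to 0.17 for Itgb3 and -0.053 (without P2WT replicate 10) to 0.51 for Gp1bb. In P2KO against P2H2KO they ran from -0.18 to 0.56 for Itga2b, -0.23 to 0.16 for Itgb3, -0.034 to 0.85 for Gp1bb, -0.22 to 1.37 for Gp6 and -0.080 to 0.89 for Clec1b. Gp6, at 3 counts in its lowest library, is limited by depth.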
